A study of Homo sapiens with 26 samples.

Results

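The outer mitochondrial membrane (OMM) transcriptome that remained in AKAP1 null cells was examined as RNA pulled down from this line against the RNA of the same lysates. The line is a single clone of HEK293T, a human embryonic kidney cell line, in which the gene for the OMM protein AKAP1 had been disrupted by CRISPR. It carried an AviTag on the endogenous ribosomal protein RPL29 and a light-gated biotin ligase held at the OMM, expressed from a lentivirus under the EF1α promoter, so that ribosomes near the membrane were biotinylated and their transcripts captured on streptavidin. From each of 2 lysates a total input and a pulldown library were sequenced, and 13567 of the 60663 listed genes had a mean of at least 64 reads in the 2 total inputs and were tested. Wild type cells with a negative control gRNA and a LARP4 null clone, lacking an RNA-binding protein, were handled alike, also with 2 lysates each, in the series of 26 samples. The labels do not state cycloheximide for these 3 lines, which the study's general protocol uses to hold ribosomes on their transcripts. Whether the lysates were separate cultures is not stated in the labels, so p-values measure the spread between these lysates.

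Nearly all mitochondrial proteins are encoded in the nucleus, made by cytosolic ribosomes and imported through the TOM complex of the outer membrane. Many carry an N-terminal presequence, rich in arginine and poor in acidic residues, that directs them to the matrix and is cut off there. Some of their transcripts are translated while attached to the mitochondrial surface, either through the emerging chain or through RNA-binding proteins of the membrane, of which AKAP1 is one.

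AKAP1 reads were low in the AKAP1 null line, at 1587 and 850 in the total inputs and 1267 and 734 in the pulldowns. Wild type total inputs held 4391 and 5489 AKAP1 reads and wild type pulldowns 7644 and 10086. All 4 null libraries therefore lay under every wild type library, although a disrupted gene need not lose its transcript. Libraries of the 3 lines held 38347615 to 100840544 reads. Of the HEK293T markers NEFL, NEFM, VIM, KRT8, KRT18 and PAX2, each had at least 222 reads in every AKAP1 null library. Of the markers of other cell types, ALB, APOA1, HBG1, PTPRC, CD3E, KRT5 and DCN had at most 9 reads in any of them and COL1A1 had 374 to 1140. The 37 genes of the mitochondrial genome were listed at 0 reads in all 12 libraries, so the transcripts made inside mitochondria could not be measured. The second LARP4 null pulldown stood apart, with MALAT1 as its most abundant gene and 2.68% of reads on noncoding RNAs against 1.59% in the first. At the read minimum, RGS3 was just inside with 62 and 66 total reads and 116 and 108 pulldown reads, and HVCN1 was just outside with 70 and 57 total reads and 120 and 82 pulldown reads.

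Enrichment is given as the fitted log2 ratio of pulldown to total input on the scale of library totals, ± its standard error, from edgeR's quasi-likelihood test with Benjamini-Hochberg adjustment over all 13567 genes. A gene was called enriched or depleted at an adjusted p below 0.05, and strongly enriched when its fitted log2 was also above 1. In the AKAP1 null line 1917 genes were enriched, 14.1% of those tested, 3986 were depleted, 29.4%, and 247 were strongly enriched, 1.82%. The median over all genes was −0.13, and TMM scaling moved it to 0.00 and the split to 2834 enriched and 2858 depleted, so levels of gene groups are read against the median of all genes. Without the first AKAP1 null lysate 490 genes were enriched, 1246 depleted and 267 strongly enriched, and without the second 541, 859 and 221. Leaving out the first or second LARP4 null lysate, which changes the shared estimate of spread, gave 2922 or 2921 enriched genes and 250 strongly enriched ones. The 2 lysates agreed in their enrichment across genes, which are not independent replicates, with a Pearson r of 0.919 and an SD of their difference of 0.228.

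Transcripts of mitochondrial proteins made up most of the strongly enriched group. Of the 1012 tested genes that encode a mitochondrial protein in the nucleus, taken from the MitoCarta inventory as the study lists it, 7.46% of all genes, 196 were strongly enriched, which was 79.4% of the 247. In all, 538 mitochondrial genes were enriched and 106 depleted, with a median log2 of 0.34 against −0.13 over all genes. Together the 196 took 1.61% and 1.66% of the reads of the total inputs and 7.05% and 9.50% of the reads of the pulldowns. In wild type the same 196 genes, which were chosen for their values in the null line, went from 1.68% and 1.61% to 3.42% and 3.76%. All 1012 mitochondrial genes together took 13.50% and 16.02% of the reads of the null pulldowns and 12.28% and 13.12% of those of wild type. HSPD1, the matrix chaperonin that folds imported proteins, was the most abundant gene of both AKAP1 null pulldowns, with 0.853% and 0.899% of the reads.

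The 10 mitochondrial genes with the largest enrichment encoded a complex III subunit, a presequence peptidase subunit, enzymes of metabolism and factors of the mitochondrial ribosome. Levels are given in CPM, reads scaled to a library total of 1000000. UQCRC1, a core subunit of complex III, took 124 and 123 CPM in the total inputs and 1997 and 2972 CPM in the pulldowns, a fitted log2 of 4.30 ± 0.16 (n = 2 lysates; adjusted p = 1.61e-06, edgeR). PMPCA, a subunit of the peptidase that removes presequences, took 99.1 and 104 CPM in the inputs and 1423 and 2069 in the pulldowns, with a log2 of 4.08 ± 0.14. DLD, the dihydrolipoamide dehydrogenase shared by the 2-oxoacid dehydrogenase complexes, rose from 149 and 187 to 1930 and 3049 CPM, with a log2 of 3.86 ± 0.13. For each of these genes the lower pulldown lay far above the higher input. The next were METTL17 (3.82), a factor of the mitochondrial ribosome, ALDH2 (3.68), which oxidises acetaldehyde, ACAT1 (3.64) and OXCT1 (3.63), which act on ketone bodies, PCCB (3.63), a subunit of propionyl-CoA carboxylase, ERAL1 (3.53), which assembles the small mitochondrial ribosomal subunit, and SUCLG2 (3.52), a subunit of succinyl-CoA ligase. Proteins of these 10 genes ranged from 434 to 570 amino acids, and in every alternative fit that was run their log2 stayed between 3.32 and 4.60 and kept its call.

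**Figure D1:**
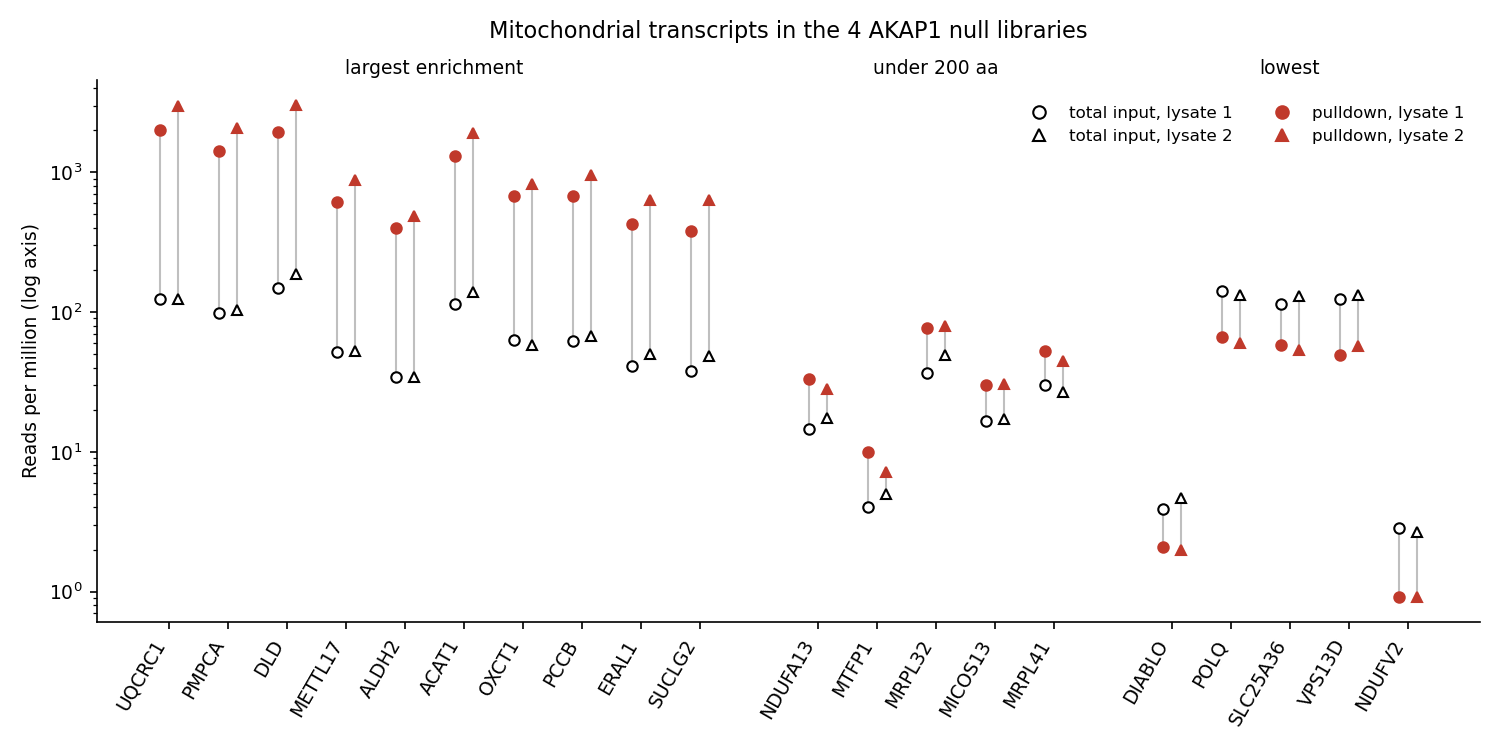
CPM (log axis) of 20 nuclear-encoded mitochondrial genes in the 4 AKAP1 null libraries, open symbols for total input and filled red symbols for pulldown, circles for lysate 1 and triangles for lysate 2. The 10 genes with the largest enrichment rise in both lysates by far more than the 5 highest genes under 200 amino acids, and the 5 lowest fall in both.

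The coding starts of 8 genes are shown because they carry or lack the presequence that these proteins begin with. Each line holds the first 30 coding bases, 10 codons from the start codon, of the MANE Select transcript in GENCODE 44 on GRCh38, with arginine codons in capitals.
UQCRC1: atggcggcgtccgtggtctgtCGGgccgct
PMPCA: atggcggctgtggtgctggcggcgacgCGG
DLD: atgcagagctggagtCGTgtgtactgctcc
HSPD1: atgcttCGGttacccacagtctttCGCcag
COX5B: atggcttcaAGGttacttCGCggagctgga
NDUFS1: atgttaAGGatacctgtaAGAaaggcctta
MFN2: atgtccctgctcttctctCGAtgcaactct
SLC25A12: atggcggtcaaggtgcagacaactaagCGA
UQCRC1 (chr3:48599002-48610976, minus strand), PMPCA (chr9:136410630-136427992, plus), DLD (chr7:107891162-107931730, plus) and HSPD1 (chr2:197486584-197516737, minus) were strongly enriched. COX5B (chr2:97646062-97648383, plus), a short complex IV subunit, had a log2 of 0.66, while NDUFS1 (chr2:206114817-206159509, minus), MFN2 (chr1:11980181-12015211, plus) and SLC25A12 (chr2:171783405-171999859, minus) were long and depleted, at −0.39, −0.39 and −0.47. NDUFS1, the largest complex I subunit, and COX5B had as many arginine codons in these 10 as HSPD1, 2 each, so the first codons by themselves did not sort these genes. Over the 30 codons after the start, SLC25A12, an inner membrane carrier, had 5 acidic codons, against none in UQCRC1, PMPCA, DLD, COX5B and NDUFS1 and 1 in HSPD1 and in MFN2, an outer membrane fusion protein.

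Coding length separated the strongly enriched mitochondrial genes from the rest. Of the 196, 171 encoded proteins of 400 amino acids or more, 87.2% of them against 36.6% of all mitochondrial genes tested. Among the 244 genes under 200 amino acids 126 were enriched (edgeR). Their highest fitted log2 was 0.94, so 0 were strongly enriched, whatever the p threshold. TMM scaling, DESeq2 or a threshold set over the median of all genes gave 3, and the fit without the second AKAP1 null lysate gave 4. By class, strongly enriched genes were 0 of 48 under 100 amino acids, 0 of 196 from 100 to under 200, 2 of 192 from 200 to under 300, 23 of 205 from 300 to under 400, 98 of 219 from 400 to under 600, 53 of 100 from 600 to under 800 and 20 of 51 at 800 or more. The medians in lysates 1 and 2 were 0.19 and 0.13 under 100 amino acids, 0.20 and 0.19 from 300 to under 400 and 0.96 and 1.28 from 600 to under 800. The gap between the short and the long classes was thus wider than that between the lysates.

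**Figure D2:**
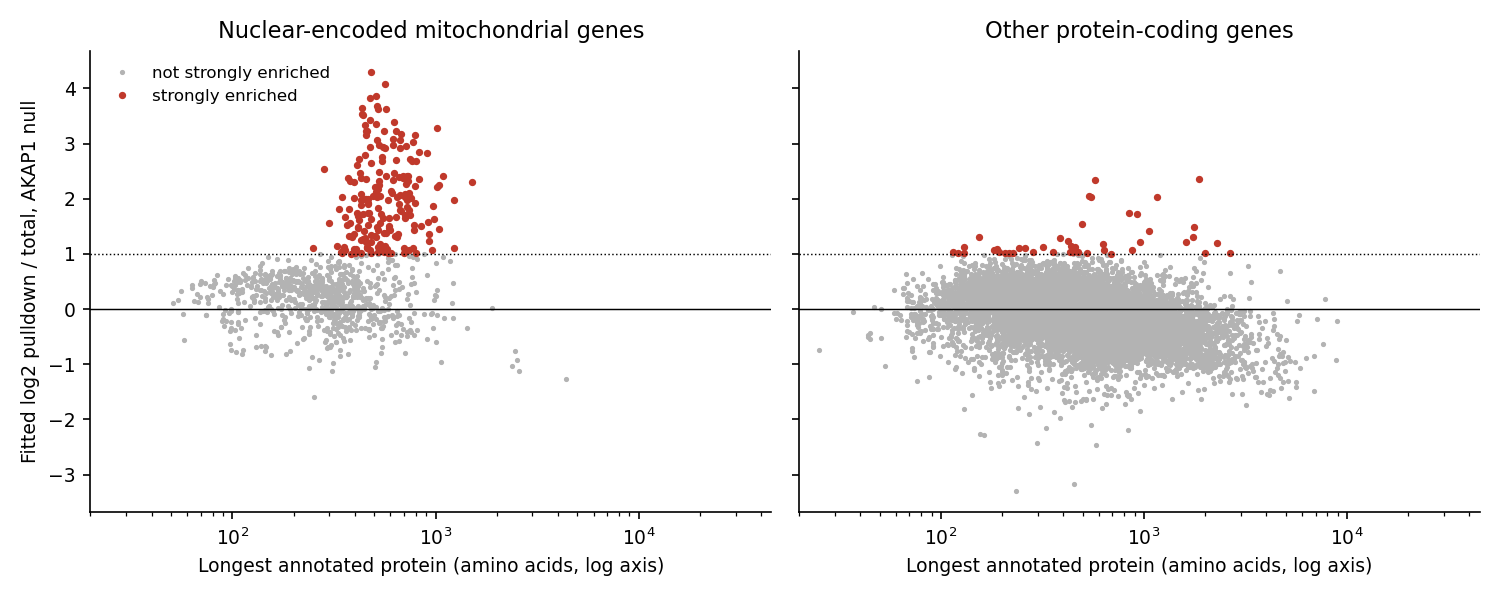
Fitted log2 of pulldown over total input in AKAP1 null cells against the length of the longest annotated protein (amino acids, log axis), for nuclear-encoded mitochondrial genes (left) and other protein-coding genes (right), with strongly enriched genes in red and the dotted line at log2 1. On the left the red points begin near 250 amino acids and crowd above 400, while on the right they are few at every length.

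Outside mitochondria the median log2 fell with length over the classes from 200 amino acids upward, in both groups of coding genes. Of protein-coding genes with a hydrophobic window of the kind found in signal and transmembrane segments, 20 of 3559 were strongly enriched, and of the remaining coding genes 24 of 7370. Among the latter the medians in lysates 1 and 2 were −0.01 and −0.14 under 100 amino acids. From 100 to under 200 they were 0.18 and 0.05. At 800 or more they were −0.34 and −0.39, and 47 of 1653 were enriched and 786 depleted. Of those 1653, 11 (0.67%) were strongly enriched, against 20 of the 51 mitochondrial genes of 800 or more. From 100 to under 200 the share was the same, with 5 of 748 (0.67%).

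The wild type and LARP4 null lines showed the opposite slope over the same mitochondrial genes. In wild type the median log2 was 1.69 under 100 amino acids, 1.10 from 100 to under 200 and 0.26 from 600 to under 800, against 0.18, 0.35 and 1.08 in the AKAP1 null line. The test of the difference itself called 161 of the 244 genes under 200 amino acids lower in the AKAP1 null line and 0 higher (edgeR; 1 at an unadjusted p under 0.05 and 0 by DESeq2), while over all genes 6.61% were higher and 7.89% lower. Of the 370 genes of 400 or more, 208 were higher and 7 lower than in wild type. With TMM scaling, which moved the median difference over all genes from 0.19 to 0.01, these were 0 higher and 178 lower, and 171 higher and 8 lower. Over all genes the counts of 897 higher and 1071 lower fell to 207 and 538 without the first AKAP1 null lysate, 159 and 428 without the second, 120 and 439 or 130 and 359 without the first or second wild type lysate, and rose to 4523 and 1881 or 4510 and 1886 without either LARP4 null lysate.

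**Figure D3:**
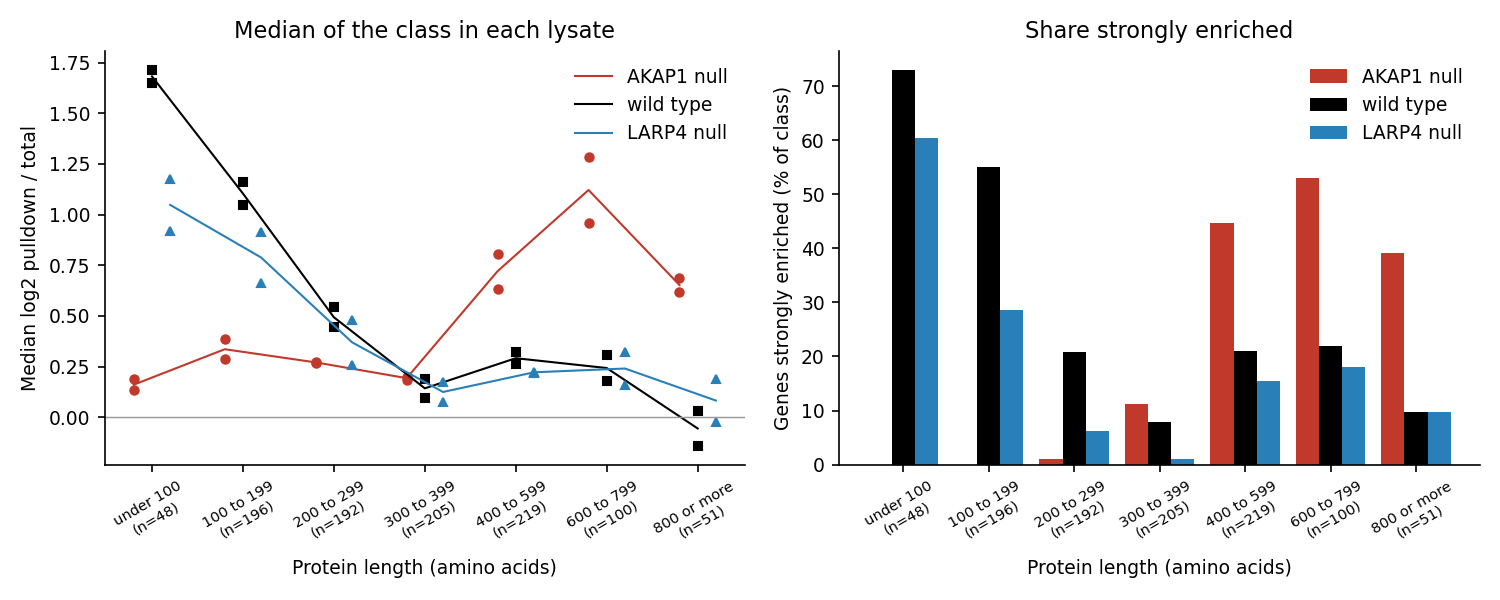
Left, the median log2 of pulldown over total input of nuclear-encoded mitochondrial genes by protein length (amino acids) in each lysate (points) and its mean over 2 lysates (lines), for AKAP1 null (red), wild type (black) and LARP4 null (blue); right, the percentage of each class strongly enriched, with the number of genes under each class. The red line is highest from 600 to under 800 amino acids, where 53 of 100 genes are strongly enriched, and the other 2 lines are highest under 100.

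Strong enrichment in the AKAP1 null line and in wild type overlapped for the long genes. In wild type 6.46% of all genes were strongly enriched. Of the 73 long mitochondrial genes among them, 70 (95.9%) were so in the AKAP1 null line, where they were 40.9% of the 171. Of the shorter mitochondrial genes strongly enriched in wild type, 10 (5.03%) were so in the null line. The 192 genes strongly enriched in wild type alone had a median length of 154 amino acids, and 137 of them were still called enriched in the null line, with a median log2 of 0.43. The 116 strongly enriched in the null line alone had a median length of 556 and a median log2 of 1.51 there and 0.50 in wild type. In the LARP4 null line 3.49% of all genes were strongly enriched, and 33.0% of those were mitochondrial. Against that line, where 1.74% of all genes were higher and 3.01% lower in the AKAP1 null line, 181 long genes were higher and 3 lower, and 79 genes under 200 amino acids were lower and 0 higher (edgeR; 1 at an unadjusted p under 0.05 and 0 by DESeq2). The 236 higher and 409 lower genes of that comparison became 172 and 95 without the first AKAP1 null lysate and 0 and 0 without the second (edgeR; 1659 at an unadjusted p under 0.05), and 1182 and 3440 or 920 and 1243 without the first or second LARP4 null lysate.

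Within the respiratory chain, most of the long subunits stood apart from the short ones. Of 81 tested subunits of complexes I to V, 9 were strongly enriched, namely 8 of the 10 of 400 or more amino acids and 1 of the 71 below that. In complex III, UQCRC2 (2.00) followed UQCRC1, and UQCRH, the hinge subunit, was at −0.31. The flavoprotein SDHA (2.40) led complex II. The catalytic and regulatory subunits ATP5F1B (2.49) and ATP5F1A (2.94) led the ATP synthase, whose other 17 tested subunits were not strongly enriched. In complex I, NDUFV1 (2.00), NDUFA10 (1.98) and NDUFA9 (1.82) were among the strongly enriched subunits. By the longest annotated protein NDUFA9, at 377 amino acids, was the single one below 400. With the MANE Select length 168 rather than 171 strongly enriched mitochondrial genes had 400 or more, and these subunits were not recounted with it. NDUFS1, of 741 amino acids, was depleted at −0.39. The lowest complex I subunit was NDUFV2 (−1.59), at 2.84 and 2.68 CPM in the inputs. It overlaps another annotated gene on its strand, so its reads are uncertain, and its call was lost when either null lysate was left out. None of the 12 complex IV subunits was strongly enriched, and 9 were enriched (edgeR), with a median of 0.47 against 2.24 in wild type, from which all 12 were lower.

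Short subunits that were strongly enriched in wild type had small log2 values in the AKAP1 null line. COX6A1, of complex IV, took 68.8 and 62.1 CPM in the null inputs and 99.6 and 85.0 in the pulldowns, a log2 of 0.49 ± 0.10 against 3.80 in wild type, with a difference of −3.31 ± 0.14 (adjusted p = 8.41e-05, edgeR). NDUFB9, of complex I, went from 110 and 93.0 to 141 and 137 CPM, a log2 of 0.46 ± 0.10 against 3.69, a difference of −3.23 ± 0.15. UQCRQ, of complex III, went from 99.3 and 93.8 to 143 and 127 CPM, a log2 of 0.48 ± 0.10 against 2.76. For each of these both pulldowns lay above both inputs, and the enrichment within the null line lost its call when either null lysate was left out. COX7A2 (0.53 in the null line, difference −2.27, its enrichment not called without the first null lysate) and COX6C (0.22 in the null line and not called, difference −2.30) completed the 5 largest falls from wild type among mitochondrial or strongly enriched genes. The highest log2 under 200 amino acids were those of NDUFA13 (0.94), MTFP1 (0.91, or 0.50 and not called without the first null lysate), MRPL32 (0.88), MICOS13 (0.84) and MRPL41 (0.78).

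The machinery of mitochondrial gene expression contained the functional group with the highest median. Of 16 aminoacyl-tRNA synthetases, which charge mitochondrial tRNAs, 13 were strongly enriched and 0 depleted (edgeR), with a median log2 of 1.93, led by FARS2 (3.33) and IARS2 (3.27). WARS2 was the lowest at −0.07, and 0.07 with TMM scaling. The cytosolic counterparts did not share this: of 20, 1 was enriched, 8 were depleted and the median was −0.18. Of 15 translation factors 7 were strongly enriched, led by GATB (3.22), of the glutamyl-tRNA amidotransferase, and TUFM (3.16), the elongation factor Tu. GFM2, which recycles mitochondrial ribosomes, took 64.5 and 61.1 CPM in the inputs and 484 and 547 in the pulldowns (3.03 ± 0.13). Of 39 genes of mitochondrial DNA and RNA metabolism 12 were strongly enriched, led by the rRNA methyltransferase MRM3 (2.73) and PTCD1 (2.38), and the mRNA-binding protein LRPPRC was the lowest at −0.33. The RNA helicase SUPV3L1, of 786 amino acids, had a log2 of 0.48 ± 0.10, a call lost without the second null lysate. Most of the 82 mitochondrial ribosomal proteins are short, and 63 were enriched but 9 strongly, of which PTCD3 (2.42) and MRPS5 (2.37) were the highest and all 5 members of 400 or more amino acids were among them.

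Enzymes of the matrix followed. Of 25 genes of the TCA cycle and pyruvate entry 15 were strongly enriched, 22 enriched and 0 depleted (edgeR), with a median of 1.35, DLD and SUCLG2 leading. Subunits of one enzyme differed: for the pyruvate and 2-oxoglutarate dehydrogenase complexes, DLD stood at 3.86, PDHA1 at 2.09, OGDH at 1.45, PDHB at 1.07 and DLAT at 0.79, while DLST was at 0.18 and not called, although TMM scaling (0.31), DESeq2 (0.33) and the fits without a LARP4 null lysate called it. DLST took 108 and 123 CPM in the inputs and 122 and 139 in the pulldowns, so that its pulldown range overlapped that of its inputs. For succinyl-CoA ligase, SUCLG2 stood at 3.52, SUCLA2 at 1.35 and SUCLG1, of 346 amino acids, at 0.36. Of 21 genes of fatty acid oxidation 8 were strongly enriched, led by HADHB (3.42), the thiolase subunit of the trifunctional protein, and ACADVL (3.17), and HADHA, the other subunit, was at 2.23. Of 20 genes of branched-chain amino acid and propionate breakdown 9 were strongly enriched, ACAT1 and PCCB leading, with PCCA at 2.33 and the phosphatase PPM1K lowest at −0.81. Of 12 genes of one-carbon and proline metabolism 5 were strongly enriched, led by ALDH18A1 (3.16), which starts proline synthesis, and ALDH4A1 (2.91), which completes proline breakdown. ALDH18A1 took 106 and 103 CPM in the inputs and 851 and 1036 in the pulldowns.

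**Figure D4:**
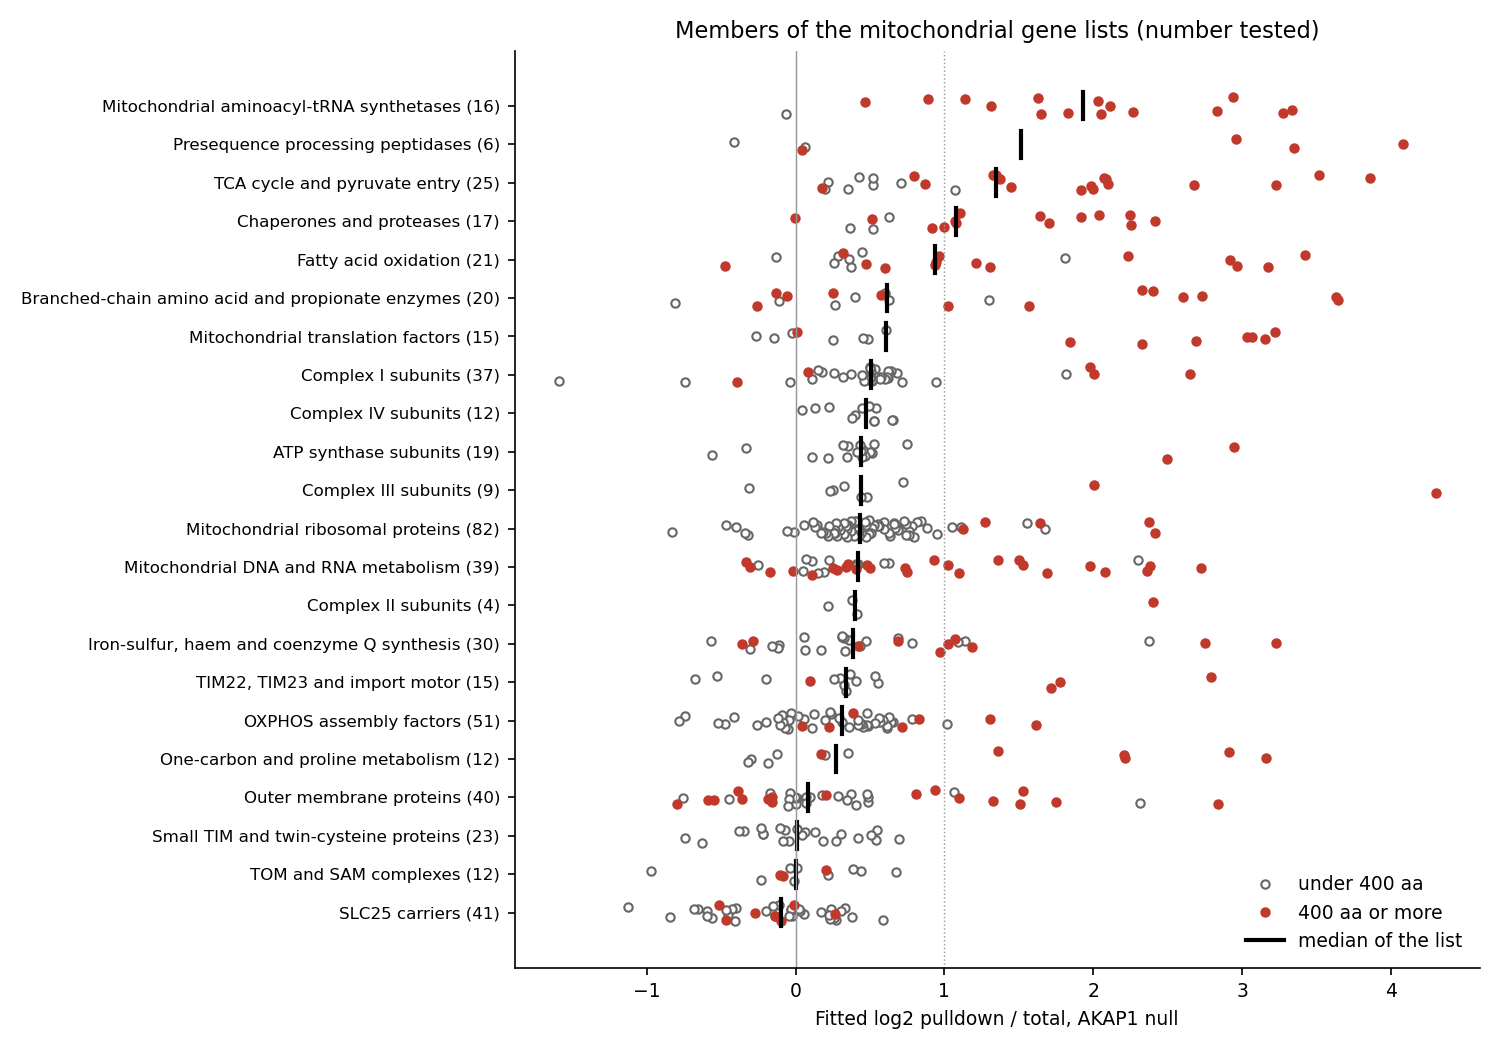
Fitted log2 of pulldown over total input in AKAP1 null cells for every tested member of 22 mitochondrial gene lists, ordered by the median of the list (black bar), with members of 400 amino acids or more in red and shorter ones open. Most points beyond the dotted line at 1 are red, and complex IV, the small TIM and twin-cysteine proteins, the SLC25 carriers and the TOM and SAM complexes have no member there.

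Among import, folding and processing factors the lists differed both in enrichment and in coding length, and the strongly enriched members of all of them had 400 or more amino acids. Such long members were 4 of 6 presequence processing peptidases, 14 of 17 chaperones and proteases, 4 of 15 translocase and motor genes, 3 of 12 TOM and SAM genes and none of the twin-cysteine proteins, and the part of length in these differences was not tested. Among 6 presequence processing peptidases, PMPCA, its partner PMPCB (3.35) and the intermediate peptidase MIPEP (2.96) were strongly enriched, and IMMP1L, of the inner membrane peptidase, was at −0.42 with a call lost under TMM scaling, DESeq2 and without either null lysate. Of 17 chaperones and proteases 10 were strongly enriched and 16 enriched, led by HSPD1 (2.42) and OMA1 (2.25), with DNAJA3 at −0.01, and 0.13 with TMM scaling. Of 15 members of the TIM22 and TIM23 translocases and the import motor 3 were strongly enriched, namely TIMM44 (2.79), HSPA9 (1.77) and AGK (1.71). Of 12 members of the outer membrane TOM and SAM complexes 0 were strongly enriched and 3 enriched (edgeR), TOMM40, the import channel, being the highest at 0.67. Among 23 intermembrane space proteins with twin-cysteine motifs, all short, 0 were strongly enriched and 7 enriched, with a median of 0.01.

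Inner membrane carriers of the SLC25 family, which are imported without a cleaved presequence, were the mitochondrial group with the lowest median. Of 41 tested, 5 were enriched, 0 strongly, and 13 depleted (edgeR), with a median of −0.10, close to that of all genes, and 0.03 with TMM scaling, which gave 9 enriched and 8 depleted. The 5 and 13 were 12.2% and 31.7% of the carriers, near the 14.1% and 29.4% of all genes. SLC25A4, an ADP/ATP carrier, was the highest at 0.59, a call lost when either null lysate was left out. SLC25A36, a pyrimidine nucleotide carrier, took 115 and 130 CPM in the inputs and 58.5 and 53.5 in the pulldowns, a log2 of −1.13 ± 0.11. All 7 tested carriers of 400 or more amino acids were outside the strongly enriched group, so in this family the long members did not stand apart.

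Outer membrane proteins, which are inserted by other routes than matrix proteins, were mixed. Of 40 tested, 8 were strongly enriched, 16 enriched and 7 depleted, with a median of 0.08. GPAM, the acyltransferase that begins glycerolipid synthesis, took 67.0 and 69.5 CPM in the inputs and 400 and 598 in the pulldowns, a log2 of 2.84 ± 0.15. ARMCX3 (2.31), RMDN3 (1.75), MIEF2 (1.53), MIGA2 (1.51), ARMCX2 (1.33), ACSL1 (1.10) and MUL1 (1.07) were the other strongly enriched ones, and MAVS, the antiviral signalling adaptor, was the lowest at −0.80. By the MitoCarta compartments, given for 682 of the mitochondrial genes, 83 of 150 long matrix genes and 33 of 64 long inner membrane genes were strongly enriched, against 3 of 21 long outer membrane genes and 2 of 12 long intermembrane space genes. The list of 40 is not the same set as that outer membrane compartment, and 6 of its 17 long genes were strongly enriched. Of 4 long genes labelled only as membrane, GPAM among them, 3 were strongly enriched, and of 106 with no compartment given 44 were. Of transcripts of 10 proteins listed as OMM RNA-binding partners, MAVS among them, 0 were enriched, also at an unadjusted p under 0.05 (edgeR). Of the 10, 9 were depleted (90%, against 29.4% of all genes). TMM scaling gave 1 enriched and 5 depleted, and DESeq2 gave 1 enriched. LARP4 itself was at −0.33.

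Cofactor synthesis and complex assembly showed the same mixture. Of 30 genes of iron-sulfur, haem and coenzyme Q synthesis 8 were strongly enriched, led by the coproporphyrinogen oxidase CPOX (3.23) and COQ8B (2.75), and IBA57 was the lowest at −0.57. Of 51 assembly factors of the respiratory complexes, 44 of them under 400 amino acids, 3 were strongly enriched, namely BCS1L (1.61), which builds complex III, ACAD9 (1.30) and NDUFAF5 (1.02), both of complex I assembly. LYRM7 was the lowest of them at −0.78.

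Among the 370 long mitochondrial genes, the make-up of the coding start went with enrichment. The strongly enriched genes had a mean of 0.509 acidic codons (SD 0.785, n = 171) among the 30 codons after the start, the other long genes 1.82 (SD 2.15) and coding genes outside mitochondria 3.59. No acidic codon at all was found in 108 of the 171 (63.2%), in 37.7% of the other long genes and in 8.33% of coding genes outside mitochondria. Arginine codons differed less, with means of 3.95, 3.37 and 1.97. Read the other way, strongly enriched genes were 108 of 183 (59.0%) with no acidic codon, 44 of 85 (51.8%) with 1, 16 of 45 (35.6%) with 2 and 3 of 57 (5.26%) with 3 or more. The other lines showed the same order over these classes. Median log2 was 0.47, 0.24, 0.06 and −0.36 in wild type and 0.40, 0.26, 0.06 and −0.20 in the LARP4 null line. These are descriptions with no test, since genes of one family share sequence. Long and strongly enriched genes also had a median 5′ UTR of 72.0 bases and 3′ UTR of 852 bases, against 109 and 1031 for the other long genes.

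**Figure D5:**
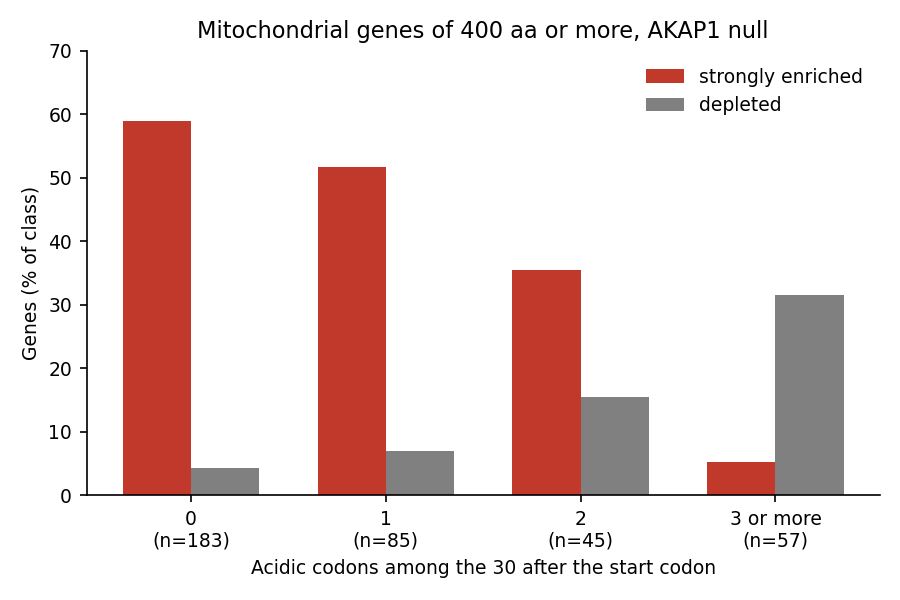
Percentage of nuclear-encoded mitochondrial genes of 400 or more amino acids that were strongly enriched (red) or depleted (grey) in AKAP1 null cells, by the number of acidic codons among the 30 after the start codon, with the number of genes under each class. The red bars fall from 59.0% with no acidic codon to 5.26% with 3 or more, and the grey bars rise from 4.37% to 31.6%.

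Depletion was less common among the long mitochondrial transcripts than over all genes, whose median log2 was −0.13. There were 39 depleted ones, 10.5% of the 370 against 29.4% of all genes, or 19 with TMM scaling. The 39 had a mean of 2.85 acidic codons and 2.54 arginine codons at their start. They included the very long VPS13D (−1.27), a lipid transfer protein of 4388 residues, POLQ (−1.12), a DNA polymerase that also works in the nucleus, and the acetyl-CoA carboxylase ACACA (−1.04) and the fatty acid synthase FASN (−0.93), whose main pools are cytosolic. ACACA took 201 and 201 CPM in the inputs and 89.7 and 106 in the pulldowns. MFN2, DNM1L (−0.39) and RHOT1 (−0.36), which act on the outer membrane in fusion, fission and transport, and the carriers SLC25A12 and SLC25A13 (−0.27) were others. AKAP1 itself (−0.55) was one of them, on the reads its disrupted gene still gave. NDUFS1, DBT (−0.26) and ALAS1 (−0.29) encode proteins of the matrix or the matrix side of the inner membrane. Below 400 amino acids the lowest were NDUFV2, SLC25A36 and DIABLO (−1.07), which had 3.91 and 4.64 input CPM, overlaps other annotated genes on its strand and lost its call when either null lysate was left out.

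The 25 strongly enriched genes below 400 amino acids lay mostly just under that length, 23 of them at 300 or more. The 2 shorter ones were C1QBP (2.53), a matrix protein of 282 residues, and the ribosomal protein MRPL47 (1.11) of 250. COQ3 (2.37), ARMCX3, TFB2M (2.30), a transcription factor of the mitochondrial genome, GHITM (2.02), RTN4IP1 (2.02), NDUFA9 and DECR1 (1.81) were the highest of the others. With the length of the MANE Select protein in place of the longest annotated one, the strongly enriched genes were 0 under 200 amino acids, 28 from 200 to under 400 and 168 at 400 or more.

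The 5 largest rises over wild type among mitochondrial or strongly enriched genes were of long proteins. Of these, 4 are described. GPD2, the inner membrane glycerol-3-phosphate dehydrogenase, took 37.2 and 36.5 CPM in the null inputs and 123 and 172 in the pulldowns, a log2 of 1.98 in the AKAP1 null line against 0.24 in wild type, a difference of 1.74 ± 0.22 (adjusted p = 0.0014, edgeR). ABCD2, a peroxisomal transporter also listed as mitochondrial, differed by 1.72 ± 0.38 at under 4 CPM in any null library, a call lost without the lysate term and without any single lysate of the AKAP1 null or wild type line. ALDH5A1 differed by 1.67 ± 0.17 and GPAM by 1.67 ± 0.20. For GPD2, ALDH5A1 and GPAM both null pulldowns lay above both null inputs.

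Ribosome footprints from wild type cells, a separate readout of the same labelling at the OMM with 1025114 and 2506515 coding reads in the pulldowns, were read over the same genes with at least 64 total input reads in both replicates. The long mitochondrial genes strongly enriched in the AKAP1 null line had a median footprint log2 of 1.05 and 1.22 in the 2 replicates (119 of the 171 measured), against −0.16 and −0.19 for the other long ones (132 measured). Of these 119, 111 were above 0 on average and 62 above 1, and of the 132, 52 and 6. ALDH18A1 stood at 4.20 and 4.17, GFM2 at 3.58 and 3.74, PMPCA at 3.33 and 3.17 and UQCRC1 at 1.74 and 1.91, while SUPV3L1 was at −0.24 and −0.17 and NDUFS1 at −0.25 and −0.48. HSPD1, strongly enriched in the null line, had footprint values of only 0.02 and −0.13. In footprints from labelling at the endoplasmic reticulum (ER), the membrane where secretory proteins are made, the long strongly enriched genes had medians of −0.62 and −0.64. These values describe cells with AKAP1 and were not tested against the null line.

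Outside mitochondria 44 coding genes were strongly enriched, and 5 of them were above a log2 of 2 against 92 mitochondrial genes. The 5 were ARHGEF4 (2.35), RSPRY1 (2.34), CYP27C1 (2.05), PPM1G (2.03) and NRIP1 (2.03). PPM1G, a nuclear protein phosphatase, took 213 and 231 CPM in the inputs and 788 and 1037 in the pulldowns. NRIP1, a nuclear receptor corepressor, rose from 82.8 and 82.7 to 289 and 393 CPM, and RSPRY1 from 54.9 and 61.0 to 252 and 338. Wild type OMM footprints of NRIP1 (3.26 and 3.06) and RSPRY1 (2.78 and 2.62) were above those of PPM1G (1.04 and 1.18). ER footprints were below 0 for NRIP1 and RSPRY1 and at 0.45 and 0.49 for PPM1G, and the other two genes had no footprint value. HK1, the hexokinase that docks on the OMM, was at 1.72, and KIFC3 at 1.73. ACOT1, at 1.23, is nearly identical to a mitochondrial paralogue and its reads are uncertain. KIFC3, ACOT1, CABYR, ATP6V0C and BSG were named after their values were seen.

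Of the 20 strongly enriched coding genes with a hydrophobic window, CABYR (1.55), ZNF865 (1.42), ATP6V0C (1.30), BSG (1.28) and ACOT1 were the highest and the other 15 lay between 1.01 and 1.13. They included DDOST (1.13), of the ER oligosaccharyltransferase. The median ER footprint log2 of the 20 in wild type was 1.90 and 1.74 (13 measured) against 0.66 and 1.03 at the OMM (12 measured). EIF4G1, the scaffold of the cap-binding complex, took 946 and 953 CPM in the inputs and 2172 and 2216 in the pulldowns, a log2 of 1.21 against 2.07 in wild type. Cytosolic ribosomal proteins had a median of 0.18. Of 85, 24 were enriched (28.2%, against 14.1% of all genes), 0 strongly, and 11 depleted (12.9%, against 29.4%) by edgeR. Their median in wild type was 1.44, from which 79 were lower. RPL28 (0.66) and RPL11 (0.57) were the highest, and without the first null lysate both calls were lost, at 0.45 and 0.30. Replication-dependent histones had 29 of 44 enriched (65.9%) with a median of 0.45, and H2AC17 rose from 27.9 and 47.4 to 81.2 and 78.7 CPM. Zinc-finger genes had 14 of 411 enriched (3.41%, against 14.1% of all genes) and 178 depleted (43.3%, against 29.4%), with a median of −0.37. Of 21 peroxisomal genes, 8 were enriched (38.1%) and 5 depleted (23.8%), with a median of 0.13. The transporter ABCD3 (1.91), which MitoCarta also lists, was the highest of them.

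Of 1626 noncoding transcripts 722 were depleted, 44.4% against 29.4% of all genes, 35 were enriched and 869 were called neither way, with a median of −0.57. RN7SL1, the RNA of the signal recognition particle, was the lowest of the noncoding list at −5.84. Of the 7 strongly enriched ones, RPS2P28 had 0 reads in one pulldown and 25.9 CPM in the other, and HSPD1P4 (1.72) and RPL14P1 (1.10) are pseudogenes that can share reads with their parent genes. The lowest coding genes, PSMA2 (−3.30), DDX47 (−3.16), TBCE (−2.46), TAS2R4 (−2.42) and ENSG00000256591 (−2.28), had at most 8.25 CPM and each shares its span and strand with another annotated gene, so their values are uncertain. PMPCB, C1QBP, OMA1, PTCD1, SDHA, CPOX, NDUFA13, MTFP1, COX6A1 and H2AC17 also overlap another annotated gene on their strand, and reads in the shared stretch could be lost or counted for either gene.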

How the data were processed

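RNA-seq of total input and pulldown was used for the AKAP1 null, wild type and LARP4 null lines, 2 lysates each, 12 libraries in all. The authors aligned reads with STAR to GRCh38 and deposited whole read counts per gene from featureCounts, together with a column named FPKM that holds a score 10 times the FPKM its own reads and lengths give and was not used here. The strand setting of the counting is not given in the sources used here. For ribosome footprints the authors deposited estimated counts per coding sequence, which were used as log2 ratios of CPM with 0.5 reads added and no test. Between 3 and 7 malformed lines per RNA-seq file were left out. The cytosolic bait and the libraries without cycloheximide were not used.

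Counts were fitted with edgeR 4.0.16 (R 4.3.3), quasi-likelihood, two-sided, with a term per lysate, library totals as the scale and Benjamini-Hochberg adjustment over 13567 genes. The fit was tested on simulated data with 200 genes raised in the AKAP1 null pulldowns. At a log2 of 1 it recovered 87.5% of them as enriched and 64.5% as higher than wild type. At 0.5 it recovered 19% and 0%. The simulated means did not differ between lysates of a line, unlike the data. Pulldown and input of a number came from one lysate by the study's methods, and their deviations correlated at 0.885 in wild type, 0.660 in AKAP1 null and 0.694 in LARP4 null cells.

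Mitochondrial genes came from the MitoCarta sheets of the study, of which 7 names were unmatched. Protein length is that of the longest annotated protein in GENCODE 44, and coding starts and UTRs are those of the MANE Select transcript. A hydrophobic window is a run of 19 residues that averages 1.6 or more on the scale of Kyte and Doolittle. Genes, 38 gene lists and comparisons were chosen with earlier results of these data known. Named genes are, among those called with the same sign in both lysates, the 10 highest mitochondrial genes, the 5 highest under 200 amino acids, the 5 lowest, the 5 highest and 5 lowest coding genes outside MitoCarta, the 2 highest and the lowest of each list, the genes the study names, and the 5 largest rises and falls against wild type among mitochondrial or strongly enriched genes. Others, among them enzyme partners, long depleted genes, genes under 400 amino acids and the strongly enriched members of small lists, were chosen after their values were seen. Some genes that these rules name are not reported here. Alternatives were TMM scaling, DESeq2 1.42.0, other read minimums, other totals, no lysate term, a log2 of 1.5, a threshold over the median, the AKAP1 null libraries alone and leaving out each lysate.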

Additional observations from a re-analysis of the deposited data

Results flagged for a closer look

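Enrichment in the AKAP1 null line differed from that of the other lines by the test of the difference itself (edgeR's quasi-likelihood test with Benjamini-Hochberg adjustment). It was higher than in wild type for 897 genes and lower for 1071, and higher than in the LARP4 null line for 236 and lower for 409. Among the 5 largest rises over wild type, as differences of log2 enrichment, were GPD2 (1.738), ABCD2 (1.720), ALDH5A1 (1.672) and GPAM (1.669). The 5 largest falls were COX6A1 (−3.308), NDUFB9 (−3.234), COX6C (−2.297), UQCRQ (−2.284) and COX7A2 (−2.266). Each null line is 1 clone, so in these libraries the disrupted gene and the clone cannot be told apart. By qPCR, outside these samples, the paper reports that re-expressed AKAP1 rescued its loss in null cells. No group held 4 samples, so single libraries were not screened as outliers.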

How the results depend on the processing

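The pairing of pulldown and input within a lysate carried many calls. With no replicate block, enriched genes fell from 1917 to 636, depleted from 3986 to 1657, those higher than in wild type from 897 to 100 and lower from 1071 to 332, and those higher than in the LARP4 null line from 236 to 73 and lower from 409 to 23, while 170 of the long mitochondrial genes were strongly enriched, against 171. DESeq2 gave 2483 depleted genes, 354 higher than in wild type and 362 higher than in the LARP4 null line. TMM scaling gave 278 higher and 1379 lower than in wild type. Genes strongly enriched under 200 amino acids were 3 with TMM scaling, 3 with DESeq2 and 3 with the threshold over the median. A log2 threshold of 1.5 gave 146 strongly enriched genes and 12 from 200 to under 400 amino acids. With no filter beyond 1 read, 872 genes were lower than in the LARP4 null line. The cause of these shifts was not tested.

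Leaving out single lysates gave 490 to 2922 enriched, 859 to 5676 depleted and 221 to 267 strongly enriched genes, with 0 to 4 under 200 amino acids, 17 to 29 from 200 to under 400 and 152 to 186 at 400 or more. It gave 120 to 4523 higher and 359 to 1886 lower than in wild type, and 0 to 1182 higher and 0 to 3440 lower than in the LARP4 null line, where the 0 came without the second AKAP1 null lysate (edgeR; 1659 genes at an unadjusted p under 0.05). A line left with 1 lysate is assumed to vary like the others. Over all alternatives, 171 long strongly enriched genes ranged from 123 to 188. Of 1973 values for 142 named genes, 1794 kept direction and call, 144 lost and 28 gained a call, 7 values that were not called changed by more than the spread between lysates, and 0 reversed a call. For the 10 differences from wild type, 123 of 129 values kept their call and 6 lost it. With 2 lysates per line and 3 residual degrees of freedom, small enrichment could often not be called.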

Other observations

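Gene groups outside mitochondria that the comparisons above do not use ranged in median log2 from −0.96 to 0.37, against −0.13 over all genes. Of all genes 14.1% were enriched and 29.4% depleted. Those shares were 10.3% and 24.1% for the solute carriers below and 6.90% and 34.5% for the SNAREs. Of 29 genes of the ER translocon and chaperones 16 were enriched and 1 depleted, with a median log2 of 0.37, and of 33 proteasome subunits 11 were enriched and 3 depleted (0.21). Of 36 cytosolic translation factors 7 were enriched and 6 depleted (−0.01), and of 17 glycolytic enzymes 3 and 3 (−0.01), medians that were 0.12 and 0.13 with TMM scaling. Of 47 integrins, collagens, laminins and cadherins 9 were enriched and 7 depleted (−0.02, and 0.11 with TMM scaling). Of 174 solute carriers outside the SLC25 family 18 were enriched and 42 depleted (−0.08, and 0.06 with TMM scaling). Of 29 SNAREs, which fuse vesicles, 2 were enriched and 10 depleted (−0.10, and 0.03 with TMM scaling). Of 14 long noncoding and structural RNAs 0 were enriched, also at an unadjusted p under 0.05 and by DESeq2, and 10 were depleted (edgeR; median −0.96).

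The 12 genes that the study names for OMM transcripts were chosen on these samples, so their counts of 10 enriched, 4 strongly enriched and 2 depleted are not independent evidence of a direction.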
